A study of Mus musculus with 1778 samples.

Results

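The 6 genes described here, Myc, Mycn, Mycl, Max, Mxd4 and Mga, were taken by name from 24920 genes as the Myc family and partners of its obligate dimer Max. They were read in single cells of C57BL/6 mouse embryos carrying Wnt1::Cre and Rosa26TdTomato. In these embryos the Wnt1 promoter drives Cre, and the red Tomato label then stays on in each recombined cell and in its descendants. Labelled cells of 4, 6, 8 and 10 somites were sorted 1 to a well and read with Smart-Seq2, which covers whole transcripts and has no molecular identifiers. Of 1778 cells 1728 were kept, of which 12.73%, 48.3%, 13.1% and 25.8% were of 4, 6, 8 and 10 somites. Genotype was the same at every stage, and no unlabelled or mutant cells were among them. As the labels give no embryo, a stage stands for 1 pool and its cells were not used as replicates, so no test between groups was possible. Levels are reads per 1000000 reads on genes (RPM), with the 45S pre-ribosomal RNA Rn45s outside the total. Intervals in parentheses are exact 95% intervals for the counting of reads alone, and reads of this protocol may be copies of 1 molecule. The spread between 8 plates, called A to H here after the numbers in the cell titles, is therefore set beside them.

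Cells were split by a pair of lineage genes. Sox10, a transcription factor of neural crest that has left or is leaving the neural tube, was at 10 RPM or more in 46.8% of kept cells, called Sox10-positive. A further 16.8% had at least 10 RPM of Wnt1, a ligand of the dorsal neural tube, with Sox10 under 10 RPM, and are called Wnt1-positive. The remaining 36.3% are called other cells. Few cells lay near the limit of Sox10, 25 at 5 to 10 RPM and 21 at 10 to 20 RPM, whereas 54 and 84 cells lay in these ranges of Wnt1. The labels call all cells cranial neural crest cells. Of 8 crest markers, 8 were at 5 RPM or more in the summed Sox10-positive cells, 4 in Wnt1-positive cells and 3 in other cells. These markers include Sox10 itself, whose part in the counts was fixed by the split. Surface ectoderm markers summed to 251.9 RPM in Sox10-positive and 768.2 RPM in other cells, and endothelial markers to 45.2 and 258.5 RPM. Neuroepithelium markers summed to 180.2 RPM in Sox10-positive, 356.8 RPM in Wnt1-positive and 309.4 RPM in other cells. Where cells with markers of other types were left out, these types were surface ectoderm, endothelium, mesoderm, endoderm, floor plate and notochord, and erythroid cells. Cells with neuroepithelium markers stayed in. The part of these cell types in the differences between classes was not tested further. Sox10-positive cells were 13.2%, 31.7%, 72.7% and 78.5% of the kept cells at 4, 6, 8 and 10 somites. Depth without Rn45s was 10736 to 1007751 reads per cell, with a median of 387020.

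Myc, Mycn and Mycl encode the c-Myc, N-Myc and L-Myc proteins, basic helix-loop-helix leucine zipper factors that bind E-box DNA as dimers with Max and raise transcription of genes for ribosome biogenesis, nucleotide synthesis and the cell cycle. Max also dimerises with Mxd proteins such as Mxd4, which recruit corepressors to the same sites. Its other partner here is Mga, a large protein that also carries a T-box and belongs to the non-canonical Polycomb complex PRC1.6. Myc is known to be transcribed in the neural plate border and crest of vertebrate embryos, and Mycn in neuroepithelium and other embryonic progenitors.

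On the mm10 build (GRCm38), Myc lies on the + strand of chromosome 15 from 61985391 to 61990374 with 3 exons, and Mycn on the − strand of chromosome 12 from 12936093 to 12941914 with 3 exons. Mycl lies on the + strand of chromosome 4 from 122995652 to 123002485 with 2 exons, and Max on the − strand of chromosome 12 from 76937269 to 76962201 with 5 exons. Mxd4 lies on the − strand of chromosome 5 from 34173883 to 34187720 with 6 exons, and Mga on the + strand of chromosome 2 from 119897228 to 119969581 with 24 exons. Counts cover whole genes, so no exon or isoform is resolved. Max overlaps the unclassified model Gm47218 on its own strand and Mxd4 the antisense model Gm42846. Neither model has a row in the table used here and the strand setting of the counting is not known, so reads of these neighbours cannot be told apart from those of Max and Mxd4.

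The promoters of Mycn and Mycl are shown because the levels of these genes ran in opposite directions along Sox10 in the cells. Each is the 250 bases before the RefSeq start on GRCm38.p6, Mycn at chr12:12941837-12942086 on the − strand and Mycl at chr4:122995681-122995930 on the + strand, with the motifs found in capitals. The GENCODE models given above start elsewhere, that of Mycl at 122995652, so that its whole window lies inside that model, and that of Mycn at 12941914, within the window:
Mycn: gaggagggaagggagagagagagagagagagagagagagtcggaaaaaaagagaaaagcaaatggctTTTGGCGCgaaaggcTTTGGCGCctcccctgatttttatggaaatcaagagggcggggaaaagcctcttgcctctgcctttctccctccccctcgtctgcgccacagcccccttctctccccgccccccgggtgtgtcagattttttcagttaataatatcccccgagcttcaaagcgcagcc
Mycl: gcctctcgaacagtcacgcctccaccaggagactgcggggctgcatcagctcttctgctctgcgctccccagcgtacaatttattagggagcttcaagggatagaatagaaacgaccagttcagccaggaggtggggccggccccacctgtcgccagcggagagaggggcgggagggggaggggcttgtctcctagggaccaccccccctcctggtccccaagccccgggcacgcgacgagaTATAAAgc
Both strands of the 5 windows found were searched for the E-box CACGTG bound by Myc and Max, the E2F site TTTGGCGC and the TATA box TATAAA, and no matches overlapped. Mycn held TTTGGCGC 2 times, a motif present in 0.417% of 32851 promoters. Mycl held TATAAA, present in 12.4% of promoters, 8 bases before the RefSeq start. Mxd4 held a CACGTG, present in 6.02% of promoters, and the windows of Max and Mga held none of the 3 motifs. A match is a string of letters and not a shown binding site.

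Mycn was the most abundant member at every stage. Per kilobase of its coding transcript model, its level in RPM was 90.6, 91.9, 155.1 and 167.4 at 4, 6, 8 and 10 somites. The level of Myc per kilobase was 35.8, 44.6, 60.8 and 69.6, and that of Mycl 14.9, 14.2, 16.67 and 9.736. Max, the partner that all 3 need, had 10.3, 11.04, 15.65 and 15.2 RPM per kilobase, Mga 7.11, 8.97, 4.47 and 5.31 and Mxd4 2.11, 2.06, 2.12 and 1.66. Mycn stood first, Myc second and Mxd4 last at each stage. Over the 5 plates of 6 somites the per-kilobase range of Mycn, 76.5 to 149.6, did not meet that of Myc, 36.1 to 52.7. Mycl at 13.3 to 15.58 lay inside the range of Max, 6.48 to 24.65, so these neighbours in the order did not differ beyond the spread of plates.

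Across stages, the level of Mycn was 242.1 (239.2 to 245.1) RPM at 4 somites, 245.7 (243.9 to 247.5) RPM at 6 somites, 414.7 (411.03 to 418.4) RPM at 8 somites and 447.7 (444.6 to 450.9) RPM at 10 somites. The 2 earlier stages were alike and the 2 later ones higher. Myc had 83.7 (81.96 to 85.4), 104.4 (103.2 to 105.5), 142.2 (140.1 to 144.4) and 162.8 (160.9 to 164.7) RPM in the same order, and so was higher at each later stage. In single cells Myc ran from 0 through a median of 136.9 to 662.5 RPM at 10 somites, and from 0 through a median of 63.7 to 375.8 RPM at 4 somites, so cells of these stages overlapped widely. The log2 ratio of 10 over 4 somites was 0.96 (0.93 to 0.99) for Myc and 0.89 (0.87 to 0.91) for Mycn. It was −0.62 for Mycl, 0.56 for Max, −0.34 for Mxd4 and −0.42 for Mga. Thus 0 of 6 members were 2-fold higher and 0 were 2-fold lower, where 6.42% of 10391 genes were at least 2-fold higher and 6.64% at least 2-fold lower.

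Plates held different stages, and the size of these differences depended on which plates carried them. Plate F held cells of 4 and 6 somites, plate B cells of 6, 8 and 10, and plate D cells of 4 and 8. On plate B Myc was at 88.3 RPM at 6 somites, 145.6 at 8 and 192.4 at 10, and Mycn at 384.1, 415.4 and 493.98 RPM. Both were ordered with stage there, Myc with a log2 ratio of 10 over 6 somites of 1.12 and Mycn of 0.36. On plate D, with 15 cells of 8 somites, Myc had 93.001 RPM at 8 and 96.98 RPM at 4 somites, which differed by less than counting error, while Mycn had 405.1 RPM at 8 and 283.9 RPM at 4 somites. Chaining 6 over 4 somites on plate F with 10 over 6 on plate B gave log2 ratios of 1.27 for Myc and 0.26 for Mycn. Chaining over plates D and B gave 0.34 for Myc and 0.76 for Mycn. Over plates F and B 1 of 6 members was at least 2-fold higher and 2 lower, where 10.56% and 9.122% of all genes were, and over plates D and B 0 were higher and 1 lower, where 9.378% and 13.25% were. Both genes were higher at 10 than at 4 somites over the stages and over both chains, by amounts that differed between these routes. At 6 somites alone Mycn ran from 204.5 to 399.96 RPM over 5 plates (292.4 ± 92.7, mean ± SD, n = 5) and Myc from 84.4 to 123.2 RPM (100.8 ± 15.5, n = 5). The plates of 6 somites with most Sox10-positive cells, 90.9% on A and 66.7% on B, had the most Mycn, 399.96 and 384.1 RPM. The other 3 had 9.44% to 41.5% such cells and 204.5 to 252.1 RPM of Mycn. Among cells of 6 somites with 300 to 600 RPM of Sox10, Mycn had 425.9 and 502.7 RPM on plates A and B. On plates E and H it had 372.6 and 306.7 RPM in such cells. The part of the share of Sox10-positive cells in the plate levels was not tested.

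Immediate early genes such as Fos and Jun are known to be raised by the handling of cells, and Myc to be induced by serum in cultured cells. Their summed level was 208.4 RPM on plate D and 1012 RPM on plate F at 4 somites, where Myc was at 96.98 and 76.4 RPM. At 6 somites it was 968 RPM on plate F and 717.4 RPM on plate E, with 84.4 and 123.2 RPM of Myc, the lowest and the highest of that stage, and 298.1 to 369.9 RPM on the other 3, with 88.3 to 107.1 RPM of Myc. Without the cells high in these genes the log2 ratio of 10 over 4 somites was 0.94 for Myc and 0.78 for Mycn. Of 10 such genes over 5 RPM, 0 were 2-fold higher and 5 at least 2-fold lower in cells of 10 against 4 somites. Over all genes these shares were 6.42% and 6.64%. Over the 2 chains 4 and 5 of the 10 were at least 2-fold higher, where 10.56% and 9.378% of all genes were. The median log2 ratio of the 10 was −0.88 over the stages and 0.68 and 0.95 over the 2 chains. In Sox10-positive against other cells of 10 somites 1 was at least 2-fold higher and 4 lower, where 2.83% and 11.3% of all genes were. The median of the 10 was −0.66 there. The part of these early genes in the class differences was not tested beyond leaving out cells high in them.

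**Figure D1:**
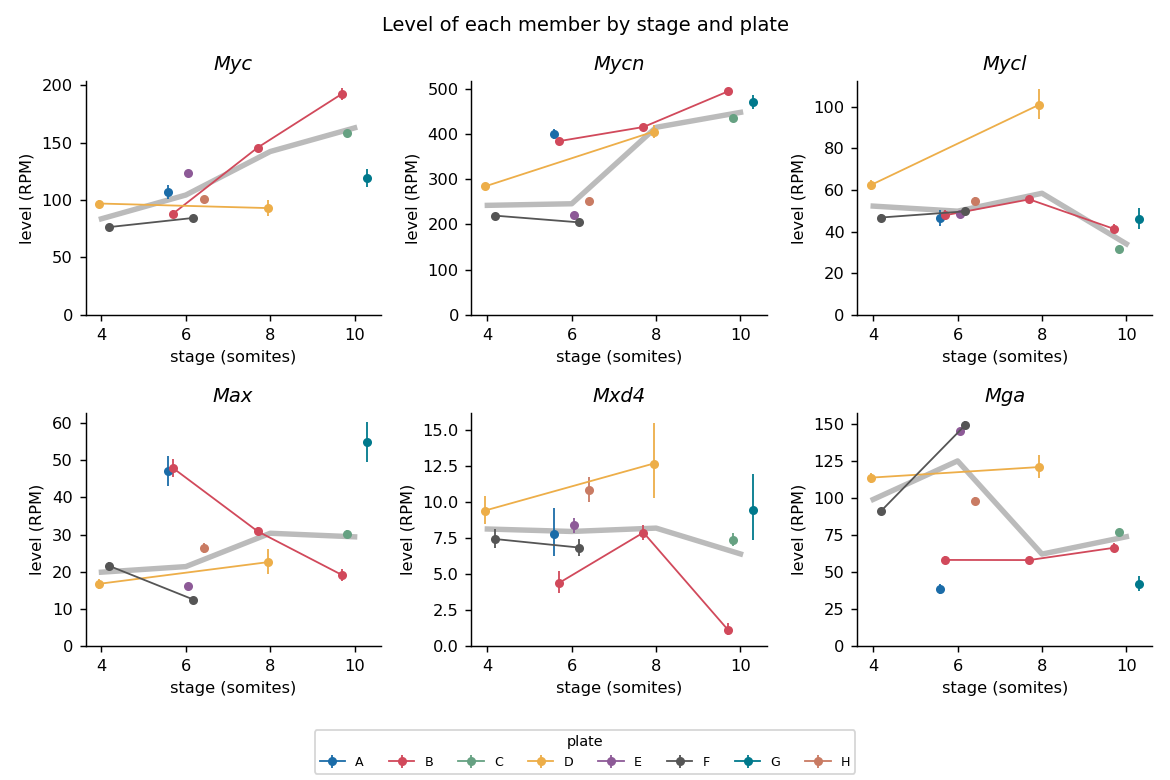
Level of each member in RPM (vertical axes) by stage in somites (horizontal axes) on each of 8 plates (coloured points, joined where 1 plate held several stages), with exact 95% counting intervals as bars and the whole stage as a grey line. Max and Mga spread most between plates of 6 somites, 3.81-fold and 3.86-fold, and Mycl least, 1.17-fold.

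Mycl was the steadiest member between plates of 6 somites, at 46.5 to 54.5 RPM (49.4 ± 3.09, n = 5). Its levels at 4, 6, 8 and 10 somites were 52.2 (50.9 to 53.6), 49.8 (48.99 to 50.6), 58.4 (56.995 to 59.8) and 34.1 (33.2 to 34.96) RPM. The level at 10 somites was the lowest, with a log2 ratio over 8 somites of −0.78, and of −0.42 on plate B. The 3 plates of 10 somites had 31.8, 41.3 and 45.99 RPM, each under the lowest of the other 9 combinations of plate and stage, 46.5 RPM. The closest values, 45.99 (41.2 to 51.1) RPM in 12 cells of plate G and 46.5 (42.7 to 50.5) RPM in 22 cells of plate A, did not differ beyond counting error. The ratio of 10 over 4 somites was −0.12 over plates F and B and 0.27 over plates D and B, so its direction was not the same by every route. Without cells holding markers of other types that ratio over the stages was −1.24.

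Max, Mxd4 and Mga varied more between plates than between stages. Mycn did so slightly, with a 1.96-fold spread over the plates of 6 somites and 242.1 to 447.7 RPM over the stages. Max had 19.9, 21.4, 30.4 and 29.4 RPM at 4, 6, 8 and 10 somites, yet 12.58 to 47.9 RPM over the 5 plates of 6 somites. On plate B it was at 47.9, 30.9 and 19.2 RPM at 6, 8 and 10 somites, the opposite order, and its 10 over 4 ratio was −2.10 and −0.26 over the 2 chains. Mga had 99.1, 125.03, 62.2 and 73.9 RPM, and was the only member 2-fold apart between neighbouring stages taken whole, with a log2 ratio of 8 over 6 somites of −1.01. In that comparison 0 members were 2-fold higher and 1 lower, where 2.93% and 4.01% of all genes were. On plate B the difference was not seen: Mga had 58.2 RPM at 8 and 58.3 RPM at 6 somites. Mga ran from 38.7 to 149.2 RPM over the 5 plates of 6 somites. Its transcript model has 13931 bases, at percentile 99.6 of gene models. Plates A and B, with the least Mga at 6 somites (38.7 and 58.3 RPM), had 3.11% and 3.26% of reads on genes with a transcript of at least 8000 bases, against 4.07% to 4.33% on the other 3. The part of transcript length in the level of Mga was not tested. Mxd4 was scarce, at 8.15, 7.98, 8.22 and 6.42 RPM by stage, and on plate B at 4.41, 7.91 and 1.16 RPM at 6, 8 and 10 somites, where the last value rests on 35 reads in 55 cells.

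The split by Sox10 and Wnt1 separated the 3 Myc genes: in Sox10-positive cells of 10 somites Myc and Mycn were higher than in other cells and Mycl was lower. Myc had 183.3 RPM (181.04 to 185.5) in Sox10-positive cells, 72.1 RPM (66.6 to 77.9) in Wnt1-positive cells and 76.01 RPM (72.6 to 79.6) in other cells. Mycn had 493.4 RPM (489.8 to 497.1) in Sox10-positive, 205.9 RPM (196.6 to 215.6) in Wnt1-positive and 268.1 RPM (261.5 to 274.7) in other cells. Mycl had 21.3 RPM (20.5 to 22.1), 158.2 RPM (150.003 to 166.6) and 63.5 RPM (60.4 to 66.8) in the same 3 classes. Single cells overlapped: Myc ran from 0 through a median of 162.3 to 662.5 RPM in Sox10-positive cells and from 0 through 49.4 to 332.9 RPM in other cells. The median of Mycl was 0 RPM in Sox10-positive and 15.2 RPM in other cells. The log2 ratio of Sox10-positive over other cells was 1.27 (1.20 to 1.34) for Myc, 0.88 (0.84 to 0.92) for Mycn and −1.58 (−1.67 to −1.49) for Mycl, and lay between −0.19 and 0.15 for Max, Mxd4 and Mga. In that comparison 1 of 6 members was at least 2-fold higher, where 2.83% of all genes were, and 1 at least 2-fold lower, where 11.3% were. The size of some ratios depended on which cells were kept. Without cells holding markers of other types the ratio was −3.20 for Mycl, 0.56 for Mycn, 1.54 for Myc and −0.81 for Mxd4, and without cells high in immediate early genes it was −2.32 for Mycl and 0.50 for Mga.

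**Figure D2:**
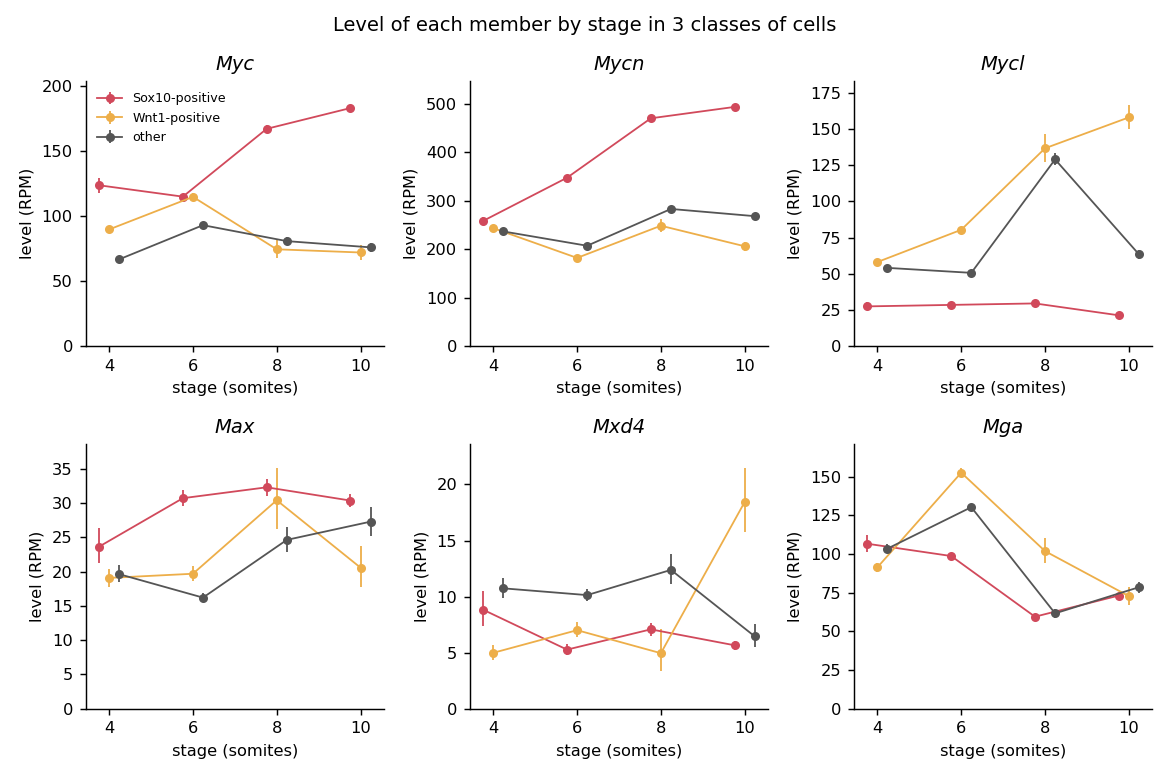
Level of each member in RPM (vertical axes) by stage in somites (horizontal axes) in Sox10-positive, Wnt1-positive and other cells, with exact 95% counting intervals as bars. Myc and Mycn in Sox10-positive cells stand above both other classes at 8 and 10 somites, and Mycl is lowest in Sox10-positive cells at each stage, 21.3 to 29.5 RPM.

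Mycn had 258.4 RPM in Sox10-positive and 236.5 RPM in other cells at 4 somites, and its log2 ratio of these classes was 0.13, 0.75, 0.73 and 0.88 at 4, 6, 8 and 10 somites. For Myc the ratio was 0.89, 0.31, 1.05 and 1.27, and for Mycl −0.98, −0.83, −2.13 and −1.58. The 3 genes kept these directions at all 4 stages. At 4 and at 6 somites 0 of 6 members passed 2-fold in either direction, where 3.49% and 2.35% of all genes were at least 2-fold higher and 10.2% and 6.87% lower. At 8 somites 1 member was higher and 1 lower, where 3.52% and 8.75% of all genes were. Only 29 Sox10-positive cells were kept at 4 somites, and 28 of them also had at least 10 RPM of Wnt1.

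Plates were compared within stage in the 8 combinations that held at least 10 cells of both classes. Mycn was higher in Sox10-positive than in other cells in 7 of them, with a median log2 ratio of 0.54, and Myc in 6, with a median of 0.51. Mycl was lower in 7, with a median of −1.15. The exception for Mycl was plate F at 6 somites, with 56.9 RPM in 17 Sox10-positive cells and 49.5 RPM in other cells. That for Mycn was plate D at 4 somites, with 273.01 RPM in 18 Sox10-positive cells and 279.9 RPM in other cells. For Myc the exceptions were plates B and H at 6 somites, with 85.98 and 94.5 RPM in Sox10-positive cells, against 86.4 and 101.8 RPM in other cells. Max was higher in Sox10-positive cells in 7 of the 8 combinations, by up to 0.98 on the log2 scale, and Mxd4 and Mga each in 3.

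**Figure D3:**
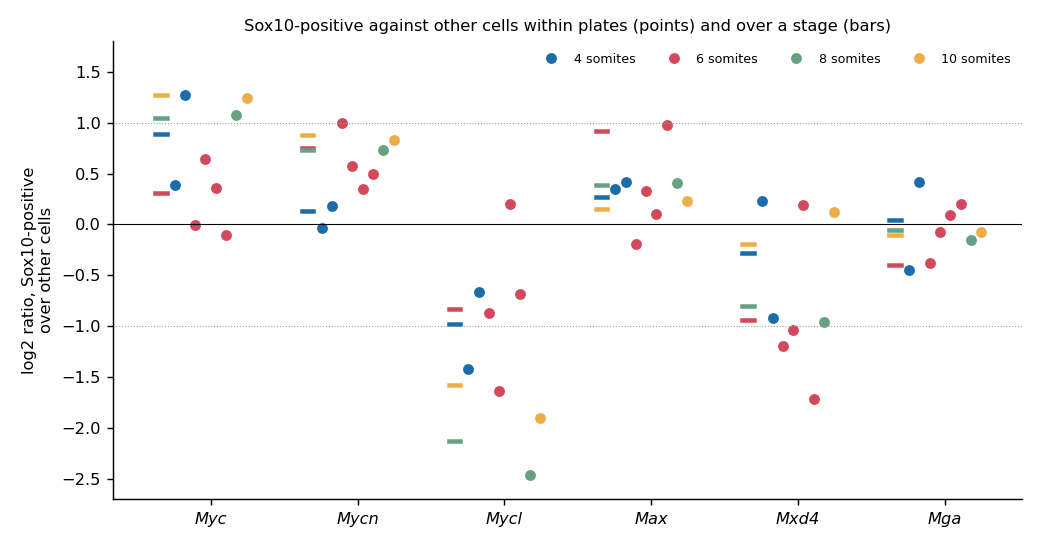
Log2 ratio of Sox10-positive over other cells (vertical axis, dotted lines at 2-fold) for each member, in the 8 combinations of plate and stage with at least 10 cells of both classes (points, coloured by stage) and over each whole stage (short bars). Mycl lies below 0 in 7 of 8 points and Mycn above 0 in 7 of 8, while Mga lies on both sides of 0.

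By stage within classes, Mycn in Sox10-positive cells had 258.4, 347.3, 469.9 and 493.4 RPM at 4, 6, 8 and 10 somites, a log2 ratio of 10 over 4 of 0.93. Wnt1-positive cells had 243.3, 181.9, 248.3 and 205.9 RPM, a ratio of −0.24, and other cells 236.5, 206.99, 282.9 and 268.1 RPM, a ratio of 0.18. Myc had 123.8, 115.05, 167.3 and 183.3 RPM in Sox10-positive cells, a ratio of 0.57. It had 89.8, 114.9, 74.5 and 72.1 RPM in Wnt1-positive cells, a ratio of −0.32, and 66.8, 93.1, 80.8 and 76.01 RPM in other cells, a ratio of 0.19. For both genes the ratio was thus highest in Sox10-positive cells, whose share of cells was also larger at later stages. Plate B held Sox10-positive cells of 6, 8 and 10 somites, and Myc in them was at 85.98, 173.5 and 202.4 RPM and Mycn at 458.7, 474.1 and 524.6 RPM. There the log2 ratio of 10 over 6 somites was 1.24 for Myc and 0.19 for Mycn. On the other 2 plates Myc was not higher at the later stage: plate F had 100.02 RPM in 17 Sox10-positive cells of 6 and 139.7 RPM in 11 of 4 somites, and plate D 98.8 RPM in 14 cells of 8 and 109.4 RPM in 18 of 4 somites. Mycn in these cells was at 262.3 and 242.3 RPM on plate F and at 423.9 and 273.01 RPM on plate D. Mycl in Sox10-positive cells was at 27.5, 28.5, 29.5 and 21.3 RPM over the 4 stages, but on plate D at 97.1 RPM at 8 and 27.3 RPM at 4 somites.

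Among Sox10-positive cells the level of Sox10 ordered Mycn and Mycl in opposite ways. At 10 somites Mycn had 388.8, 457.2, 516.2 and 598.04 RPM in cells with 10 to 100, 100 to 300, 300 to 600 and at least 600 RPM of Sox10, with at least 27 cells in each range. Mycl had 57.998, 24.1, 15.3 and 6.46 RPM in the same cells, and Myc 108.8, 184.04, 194.3 and 198.6 RPM. At 8 somites Mycn had 231.1, 449.9, 521.6 and 547.8 RPM over these ranges and Mycl 91.3, 42.9, 13.70 and 6.04 RPM. At 6 somites Mycn had 253.6, 292.9, 378.5 and 519.1 RPM and Mycl 78.4, 24.57, 12.5 and 3.405 RPM. Mycn was thus higher and Mycl lower at each step of Sox10 at these 3 stages. Myc was ordered with Sox10 at 10 somites, whereas at 6 somites it had 114.2, 134.05, 112.6 and 82.97 RPM and was lowest where Sox10 was highest. In 6 combinations of plate and stage with at least 2 ranges of at least 10 cells, Mycn was higher at every step in 6 and Mycl lower at every step in 6, and Myc was higher at every step in 2. Plate B at 10 somites had only 2 such ranges. On plate H at 6 somites Mycn had 302.8 (287.4 to 318.8) and 306.7 (295.9 to 317.9) RPM in the middle ranges, a step within counting error. The ranges share plates and read totals, so this order is a description.

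**Figure D4:**
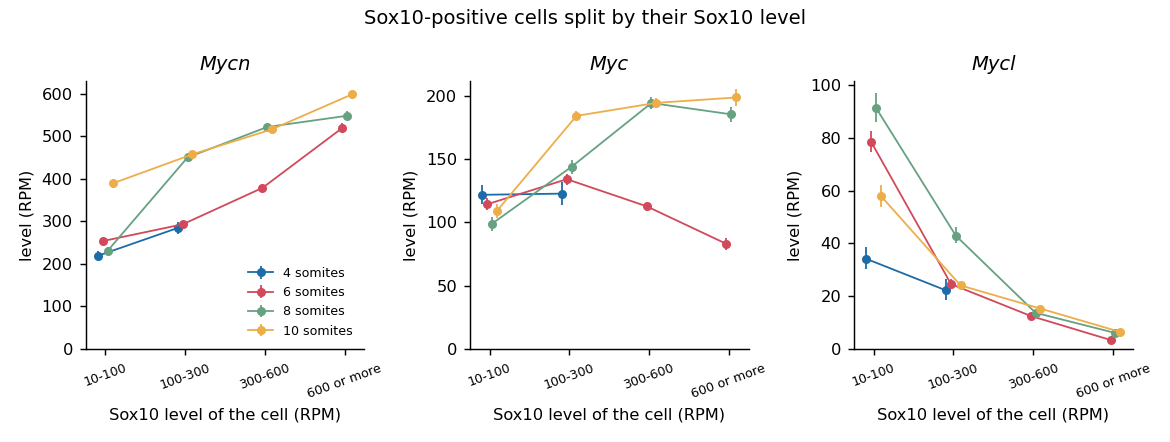
Levels of Mycn, Myc and Mycl in RPM (vertical axes) in Sox10-positive cells split by their own Sox10 level in RPM (horizontal axes), for each stage with at least 10 cells in a range, with exact 95% counting intervals as bars. Mycn is higher and Mycl lower at each step, with Mycl at 10 somites at 57.998 RPM in the lowest range and 6.46 RPM in the highest, and Myc has no order common to the stages.

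Within Sox10-positive cells of 8 and 10 somites Mycl was higher in those that also had Wnt1. Among Sox10-positive cells of 10 somites, the 58 with at least 10 RPM of Wnt1 had 54.2 RPM of Mycl, against 14.5 RPM in those without. At 8 somites these levels were 53.5 and 21.9 RPM, and at 6 somites 29.7 and 25.9 RPM. Plate D gave 12 of the 42 cells with Wnt1 at 8 somites, and its 15 cells of that stage had 100.9 RPM of Mycl. This split was made neither within plates nor within ranges of Sox10, along which Mycl was lower. The parts of plate, of Sox10 level and of Wnt1 in it were not tested. Mycn was at 505.6 RPM with and 490.9 RPM without Wnt1 at 10 somites, and Myc at 148.3 and 190.5 RPM. In Wnt1-positive cells, with Sox10 under 10 RPM, Mycl was at 58.1, 80.4, 136.8 and 158.2 RPM at 4, 6, 8 and 10 somites, with only 12 cells at 8 and 25 cells at 10 somites. The 3 plates of 6 somites with at least 10 such cells had 47.8, 85.5 and 136.7 RPM in them. On plate F, which held cells of 4 and 6 somites, Mycl was at 47.8 RPM at 6 and 54.02 RPM at 4 somites. Other cells had 54.1, 50.7, 129.1 and 63.5 RPM over the stages, so the log2 ratio of Wnt1-positive over other cells was 0.10, 0.67, 0.08 and 1.32. Within plates and stages Mycl was higher in Wnt1-positive cells in 5 of 7 combinations, with a median of 0.30. Wnt1-positive over other cells of 10 somites gave a log2 ratio of 1.32 for Mycl and 1.51 for Mxd4, so 2 of 6 members were at least 2-fold higher and 0 lower, where 5.61% and 10.1% of all genes were. The ratio of Mycl at 10 somites was 0.89 without cells holding markers of other types and 0.77 without cells high in immediate early genes, under 2-fold in both. For Mxd4 the ratio rests on 18.4 RPM (15.72 to 21.5) in Wnt1-positive and 6.46 RPM (5.48 to 7.56) in other cells, and at 8 somites the order was the opposite, with 4.96 and 12.4 RPM. Only 24% of the 25 Wnt1-positive cells of 10 somites had a read of Mxd4, with a median and an upper quartile of 0 RPM. A few cells thus carried its level there, a spread that the counting interval does not cover. Sox10-positive over Wnt1-positive cells of 10 somites gave 1.35 for Myc, 1.26 for Mycn, −2.89 for Mycl and −1.71 for Mxd4, so 2 members were at least 2-fold higher and 2 lower, where 8.61% and 12% of all genes were. On plate C alone, with 21 Wnt1-positive cells, these 4 ratios were 1.45, 1.22, −3.07 and −1.78. The 25 Wnt1-positive cells of 10 somites held 23.67% of the Mycl reads of that stage and 2.35% of its Mycn reads.

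Shares of cells with a read were compared after thinning each cell to 50000 reads, a depth that 0, 2, 0 and 4 cells did not reach at 4, 6, 8 and 10 somites. Mycn had a read in 95%, 89.6%, 96.5% and 96.4% of cells at these stages, and Myc in 74.5%, 76.6%, 89.9% and 89.4%. Mycl was read in 57.7%, 44.9%, 44.1% and 37.3%, Max in 39.5%, 41.9%, 66.5% and 62.2%, Mga in 78.2%, 79.5%, 70.04% and 78.3% and Mxd4 in 15%, 14.9%, 18.1% and 16.742%. No read at this depth does not show that a transcript was absent: without thinning, Mxd4 was read in 24.1%, 21.8%, 41.4% and 29.6% of cells. Of Sox10-positive cells 48.3%, 32.2%, 37.6% and 31.7% had a read of Mycl, against 56.6%, 47.8%, 64% and 52.9% of other cells. Both Myc and Mycn had a read in 72.4%, 84.1%, 95.8% and 94.6% of Sox10-positive cells at 4, 6, 8 and 10 somites, with an exact binomial interval of 91.7% to 96.7% at 10 somites. In other cells both were read in 66.04%, 60.8%, 70% and 64.7%, with 52.2% to 75.9% at 10 somites. Multiplying the separate shares of Myc and Mycn gave 70.6%, 83.7%, 95.8% and 94.3% in Sox10-positive and 66.1%, 59.9%, 68.1% and 60.2% in other cells, close to the shares with both. Where nearly all cells had a read of each gene, as in Sox10-positive cells of 8 and 10 somites, these values could hardly differ. There the product does not show whether Myc and Mycn go together. Spearman's rho of their levels over cells, a description over cells of shared plates, ran from −0.0048 at 6 somites to 0.36 at 8 somites in Sox10-positive cells, with 29 to 350 cells a stage. Mycn without Myc was read in 4.86% of Sox10-positive and 20.59% of other cells of 10 somites, and neither in 0.286% and 8.82%. At least 1 of Myc, Mycn and Mycl had a read in 99.1%, 97.5%, 99.6% and 99.1% of all cells of the 4 stages.

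Other genes of the network were read beside the Myc genes. Of all genes 6.42% were at least 2-fold higher and 6.64% lower at 10 against 4 somites. These shares were 10.56% and 9.122% over plates F and B, and 9.378% and 13.25% over plates D and B. In Sox10-positive against other cells of 10 somites they were 2.83% and 11.3%. Of 7 further Max and Mlx network genes, which include other Mxd repressors, 4 reached 5 RPM at some stage. None of these 4 was 2-fold apart between 10 and 4 somites (median log2 ratio −0.05, against 0.01 over all genes) or between Sox10-positive and other cells of 10 somites (−0.30, against −0.07). Mxi1, a Max-binding repressor, had 21.1 RPM in Sox10-positive and 38.8 RPM in other cells of 10 somites. Of 17 Myc cofactors and stability factors, 17 were over 5 RPM and 0 passed 2-fold in either comparison, with medians of −0.05 and −0.07. Over each of the 2 chains 1 of them was at least 2-fold higher at 10 than at 4 somites, and 0 and 1 were lower. The higher one was Usp28, a deubiquitinase known to stabilise c-Myc, with 1.08 and 1.09 on the log2 scale, against 0.07 over the stages. The ATPases Ruvbl1 and Ruvbl2 had 386.4 and 343.8 RPM in Sox10-positive cells, against 271.6 and 270.8 RPM in other cells. Aurka, a kinase known to stabilise N-Myc, had 184.5 RPM at 10 and 268.2 RPM at 4 somites, and was the lower one over plates D and B, at −1.04. Of 12 genes of PRC1.6, 11 were over 5 RPM and 0 passed 2-fold in either comparison, with medians of 0.05 and 0.12. Over the 2 chains 2 and 1 were at least 2-fold higher and 0 lower, among them Rybp, a subunit that binds Ring1, with 1.19 and 1.36. Rybp lay near the minimum of 5 RPM, at 5.26 RPM at 4 and 5.51 RPM at 10 somites, with 0.07 over the stages. Pcgf6, the defining Polycomb subunit of PRC1.6, had 108.5 RPM in Sox10-positive and 75.1 RPM in other cells of 10 somites.

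Of 38 genes known from other systems to be activated by Myc, all at 5 RPM or more at some stage, 36 were higher in Sox10-positive than in other cells of 10 somites and 2 lower. Their median log2 ratio was 0.39, where the median of all genes was −0.07 and 43.3% of all genes were above 0. Of the 38, 0 were at least 2-fold higher and 1 lower, where 2.83% and 11.3% of all genes were. The lower one was the telomerase subunit gene Tert, at 4.11 RPM in Sox10-positive and 9.45 RPM in other cells. Slc19a1, a folate carrier, had 100.3 RPM in Sox10-positive and 56.7 RPM in other cells. Shmt1, an enzyme of one-carbon metabolism, had 213.1 and 122.2 RPM in these classes, and Rrp12, a ribosome assembly factor, 146.6 and 90.2 RPM. The median was 0.19, 0.17, 0.24 and 0.39 at 4, 6, 8 and 10 somites, with 31, 29, 36 and 36 of 38 genes above 0. In the 8 combinations of plate and stage it ran from 0.04 to 0.38, in each case above the median of all genes there.

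Between 10 and 4 somites the median of these 38 genes was 0.09 over the stages, −0.07 and −0.05 over the 2 chains, and 0.10 in Sox10-positive cells. Over the stages 1 of them, the cyclin gene Ccnd2, was at least 2-fold higher and 0 lower, where 6.42% and 6.64% of all genes were. Over each of the 2 chains 3 were higher, where 10.56% and 9.378% of all genes were. In the same order 2 and 1 were lower, where 9.122% and 13.25% of all genes were. Ccnd2 had 179.96, 342.7, 499.6 and 548.7 RPM at 4, 6, 8 and 10 somites, with log2 ratios of 10 over 4 of 1.61 over the stages and 1.83 and 1.46 over the 2 chains. In Sox10-positive and other cells of 10 somites it had 536.9 and 481.2 RPM. Of 8 genes known to be repressed by Myc, 4 were over 5 RPM. In Sox10-positive cells of 10 somites 0 of these were 2-fold higher and 1 at least 2-fold lower, where 2.83% and 11.3% of all genes were. The lower one was the matrix protein gene Thbs1, at 7.82 RPM against 40.9 RPM in other cells. Gadd45a, a growth arrest gene of that list, had 28.02, 23.741, 12.8 and 10.1 RPM at 4, 6, 8 and 10 somites. By class it was higher in Sox10-positive than in other cells, with log2 ratios of 3.45, 2.61, 1.35 and 0.72 at these stages, and at 6 somites had 49.6 RPM in Sox10-positive and 8.13 RPM in other cells.

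**Figure D5:**
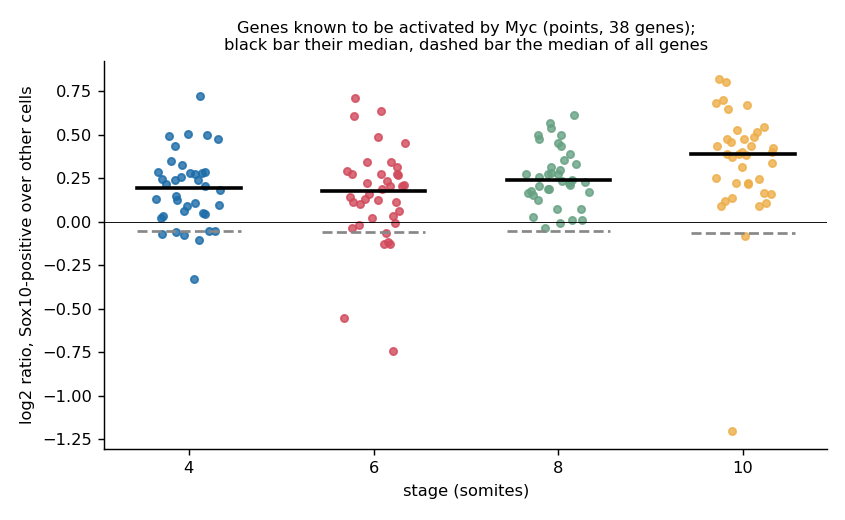
Log2 ratio of Sox10-positive over other cells (vertical axis) of 38 genes known to be activated by Myc (points) by stage in somites (horizontal axis), with their median (black bar) and the median of all genes (dashed bar). The median of the 38 lies at 0.19, 0.17, 0.24 and 0.39, above that of all genes at each stage.

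The genes most like each Myc gene were ranked by Pearson r of log2(RPM + 1) over 21 groups of plate, stage and class with at least 20 cells, among 8205 genes. The groups share plates and totals, and r is a description. They were also cut by Sox10, so differences between its classes enter r. Sox10 itself had r of 0.87 with Mycn, 0.59 with Myc and −0.76 with Mycl. Closest to Mycn were Foxo1 (r 0.92), a forkhead factor, Sppl2b (0.91), Tmem119 (0.90), Plcg2 (0.89), a phospholipase, and Gspt1 (0.89). In Sox10-positive and other cells of 10 somites Foxo1 had 123.03 and 34.7 RPM and Plcg2 427.2 and 22.8 RPM. Furthest from Mycn were Armc10 (−0.93), Tmem147 (−0.93) and the microtubule protein gene Map1b (−0.92), which had 158.2 RPM in Sox10-positive and 675.9 RPM in other cells. Closest to Myc were Cacybp (0.86), Utp4 (0.86), a factor of ribosomal RNA processing, Eif2b3 (0.81), a translation initiation factor, Cnbp (0.80) and Phb (0.80). Furthest from Myc were Rffl (−0.82), Tubb4a (−0.81) and Cd24a (−0.80), and r of Myc with Mycn was 0.54. Closest to Mycl were Dpysl5 (0.93), known from growing axons, Ildr2 (0.91), Celsr2 (0.91), a planar polarity cadherin, Mfng (0.91), a modifier of Notch, and Ccdc177 (0.90). Dpysl5 had 22.1 RPM in Sox10-positive, 201.4 RPM in Wnt1-positive and 141.7 RPM in other cells of 10 somites. The 4 closest to Mga were Rabgap1, Ubr1, Cep192 and Pcm1 (0.92 to 0.95), whose transcript models have 4967 to 8093 bases. Max and Mga ran opposite to each other over these groups, with r of −0.69, and −0.88 over groups of plate and stage alone. Over cells within a stage and class, Spearman's rho of Max and Mga ran only from −0.28 to 0.17. The part of plates in their opposite order was not tested.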

How the data were processed

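Each cell was 1 sample. The deposited table holds counts (raw reads per gene in each cell), as its whole-number values show. Per the submitters' processing notes, bcl2fastq 2.18, STAR 2.6 and mm10 were used. Counter, annotation release and strand setting: not given in the sources used here. Cells with at least 50000 reads and 1500 detected genes were kept, which removed 19, 25, 1 and 5 cells at 4, 6, 8 and 10 somites. RPM left out 92 spike-ins and Rn45s, which took 44.4% to 59.2% of the reads of a stage. With it out, the median gene moved by under 0.1 on the log2 scale between stages and between classes.

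Reads were summed over cells and 0.5 read was added for ratios. Intervals were Poisson for levels, conditional binomial for ratios and Clopper-Pearson for shares. Numbers in titles were taken as plates, which the labels do not state. No doublet caller was run on the singly sorted cells. Lists used genes with at least 5 RPM at some stage and a 2-fold threshold. Genes named from a list were among the 4 with the largest ratio of 10 over 4 somites or the 4 with the largest ratio of Sox10-positive over other cells at 10 somites and the same sign within plates. By likeness the 5 highest and 3 lowest for Myc and Mycn were named, and 1 gene ranked by likeness is not reported here. Those of Mycl and Mga were chosen after their values were seen. Members and lists were chosen with earlier results of these data known. The ranges of Sox10, the split by Wnt1, the stage ratios within classes and the long-transcript share were added after seeing the data. Transcript models were the longest coding one of each gene in GENCODE vM21, matched by symbol, and RefSeq promoters were found for 5 of 6 genes. The ratio step was tested on simulated data. Python 3.11.15 with numpy 2.4.6, scipy 1.17.1 and pandas 2.3.3 was used, and edgeR 4.0.16 and DESeq2 1.42.0 served only for alternative scaling.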

Additional observations from a re-analysis of the deposited data

How the results depend on the processing

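Directions of Myc, Mycn and Mycl in the comparisons of 10 with 4 somites (Myc and Mycn) and of Sox10-positive with other cells at 10 somites (all 3) were the same under each alternative run, but sizes moved beyond counting error. The cause was not tested. For 10 over 4 somites, log2 ratios of Myc and Mycn were 1.11 and 1.04 with Rn45s kept in the total (2 members then at least 2-fold higher), 1.27 and 0.26 within plates (1 member higher and 2 lower) and 0.34 and 0.76 over the other chain (1 lower). Of all genes 10.56% were at least 2-fold higher and 9.122% lower within plates, and 9.378% and 13.25% over the other chain. Over the stages these shares were 6.42% and 6.64%. Myc was 0.85 with equal weight per plate, and Mycn 0.87 by the mean of RPM per cell, 0.97 without cells holding markers of other types (1 member lower) and 0.78 without cells high in immediate early genes. Leaving out each plate gave 0.75 to 1.09 for Myc and 0.66 to 1.03 for Mycn, with 0 to 2 members higher and 0 to 1 lower. Without plate C and without plate D 2 members were higher, and without plate C 1 was lower.

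For Sox10-positive over other cells at 10 somites, Myc, Mycn and Mycl were 1.37, 0.98 and −1.48 with Rn45s kept, 1.41, 1.02 and −1.44 with edgeR TMM factors (2 members then higher) and 1.37, 0.98 and −1.47 with DESeq2 size factors. Without cells holding markers of other types they were 1.54, 0.56 and −3.20, which kept 43.7% of the cells. Mycn and Mycl were 0.83 and −1.90 within plates and 0.81 and −2.32 without cells high in immediate early genes. Myc and Mycl were 1.15 and −1.06 with equal weight per plate, and Mycl was −1.70 by the mean of RPM per cell and −1.84 with classes cut at 50 RPM. Leaving out each plate gave 1.25 to 1.27, 0.84 to 0.88 and −1.77 to −1.58, with 1 member higher and 1 lower each time. With every plate kept, 2.83% of all genes were at least 2-fold higher and 11.3% lower. Plate C could not be left out here, as it held 67 of the 71 other cells.

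Over all 6 members and 16 comparisons, no value of at least 2-fold changed sign under any alternative. The filters on reads and genes per cell and 5 added reads moved 0 of 96 values beyond counting error. Leaving out cells with markers of other types moved 71 of 84, leaving out cells high in immediate early genes 60 of 96, equal weight per plate 57 of 96 and classes cut at 1 read 36 of 72. These 4 kept the direction in 67 of 84, 81 of 96, 84 of 96 and 63 of 72 values, and 12 of 14, 12 of 17, 13 of 17 and 13 of 16 values of at least 2-fold stayed past 2-fold. Without a minimum RPM, 16.4% and 15.3% of all genes were 2-fold higher and lower at 10 against 4 somites. Of the 5 genes most like Myc and Mycn, 0 and 1 were among the 5 when classes were not split. Shares of cells moved with depth in 19 of 24 cases at 200000 reads, 20 of 24 without thinning and 23 of 24 at 3 reads. No paired analysis was possible because replicate numbers follow accession order alone and no test was run, so groups were matched only by plate, as values within plates. Among the 5 plates of 6 somites none lay outside Dixon's limit for any member.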
